A study of Mus musculus with 4 samples.

Results

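Tropomyosins are represented in these data by 5 genes: Tpm1, Tpm2, Tpm3, Tpm4 and Tpm3-rs7, an intronless copy of Tpm3. They were chosen by gene symbol from the 20308 genes counted in any library, and all 5 passed the filter on low counts. The choice was made with earlier results of these data known, because Tpm3 and Tpm3-rs7 had been among the few genes called between the genotypes. Their differences between the groups are therefore given as descriptions, with a standard error and no test.

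RNA was taken from microglia, the resident macrophages of the brain, isolated from mice at postnatal day 11, in a study of PD-1 and the pruning of brain vessels. There were 2 libraries of the genotype Pd1fl/fl, in which the PD-1 gene Pdcd1 is flanked by recombination sites, and 2 labelled Pd1cKO-Cx3, a conditional deletion of Pdcd1 (called the labelled knockouts from here on). What drives the deletion is not spelled out in the labels, and whether control mice carried the driver is not stated. Nor do the labels give the strain or the number of animals behind a library. If replicates share a source, their spread may be technical. Library totals ran from 14258420 to 15908954 counts. Pdcd1 went against the labels, with 0 and 43 counts in Pd1fl/fl replicates 1 and 2 but 179 and 154 in Pd1cKO-Cx3-labelled replicates 2 and 3, so every direction below follows the labels only. That difference lay at low counts and did not pass edgeR's test over all genes (Benjamini-Hochberg adjusted p = 0.695). Counts per gene do not show which exons were read. The counts of Xist were 13374 for Pd1fl/fl replicate 1 and 0 for the labelled knockouts. Xist was unlisted for Pd1fl/fl replicate 2 (4 counts or fewer, set to 0). The counts of Ddx3y were 0 for Pd1fl/fl replicate 1 and 1891 to 2064 elsewhere. The controls thus differed from each other in these sex-linked genes. Mitochondrial genes took 1.24% and 1.02% of the control counts and 1.48% and 1.60% of those in the libraries labelled Pd1cKO-Cx3. The part of these differences in the results below was not tested. Microglial markers were present in every library. Csf1r, a receptor gene of macrophages, stood at 15550 to 17170 CPM (counts per 1000000 counts of the library) over the 4 libraries, and Tmem119 at 8016 to 8423 CPM. P2ry12, a purine receptor gene of microglia, stood at 14870 and 15130 CPM for the controls against 11310 and 10690 CPM.

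Tropomyosins are rod-shaped coiled-coil proteins that lie end to end along actin filaments and set which other proteins, such as myosins and cofilin, can act on them. In muscle they work with troponin to gate contraction, and in other cells they stabilise particular filament populations. Each of the genes Tpm1 to Tpm4 makes several isoforms by alternative splicing, and long and short isoforms of Tpm1 and Tpm3 start at different promoters. A retrogene, the class to which GENCODE assigns Tpm3-rs7, arises when a spliced mRNA is copied back into the genome.

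The sequences of the pair are given first because they decide how its counts can be read. Tpm3 (ENSMUSG00000027940) lies on the plus strand of chromosome 3, 90072649 to 90100902, and Tpm3-rs7 (ENSMUSG00000058126) on the plus strand of chromosome 14, 113314608 to 113316713. These are the positions in the deposited tables, read as GRCm38. GENCODE M21 gives Tpm3-rs7 1 exon and a coding gene, while RefSeq lists it as a pseudogene. The GENCODE M21 transcript is longer than the deposited span, so the 2 annotations differ at this gene. Its transcript of 2147 bases aligned with the short Tpm3 transcript of GENCODE (2230 bases in 8 exons) over 2108 alignment columns, of which 2089 were identical (99.1%). The remainder were 13 base differences and 6 inserted or missing bases. The 2 coding sequences have the same length of 747 bases with the stop codon and differ at 3 bases (99.6% identity). Written with the Tpm3 base first, and with positions counted from 1 at the A of the start codon, these are G72A, G98A and G127A. All 3 fall in the last 72 bases of the first coding exon of that transcript, at chr3:90079792-90079863 in Tpm3 and chr14:113314736-113314807 in Tpm3-rs7. The stretch is shown because it holds every coding base by which the copy differs from this short transcript, with those bases in capitals. Other Tpm3 isoforms were not compared base by base.
Tpm3: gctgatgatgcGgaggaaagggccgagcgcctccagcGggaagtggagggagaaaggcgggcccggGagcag
Tpm3-rs7: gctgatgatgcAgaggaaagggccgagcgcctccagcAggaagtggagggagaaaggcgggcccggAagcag

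How far a stretch of the copy can be told from its parent depends on its length. Of the 2098 windows of 50 bases in the Tpm3-rs7 transcript, 1457 (69.45%) occur unchanged in a Tpm3 transcript. With windows of 100 bases it was 1020 of 2048 (49.8%), and with 150 bases 676 of 1998 (33.8%). The longest run shared with the short Tpm3 transcript was 628 bases. Tpm1 and Tpm2 shared no window of 50 bases with any other gene, among 6838 and 3087 windows. Tpm4 shared 251 of its 2154 windows of 50 bases with the predicted gene Gm7809, which had 12 and 21 counts in the controls and 13 and 3 in the other group. At 50 bases the pair also shared windows with the predicted genes Gm7848, Gm7839, Gm4157 and Gm5996, none of which was in the deposited tables. The single values of Tpm3 and Tpm3-rs7 are uncertain because of such sharing. Tpm1 and Tpm2 had no such competitor among annotated transcripts at these window lengths. No source used here gives the read length or the treatment of reads that match more than 1 place. The windows are those of the reference strain.

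**Figure D1:**
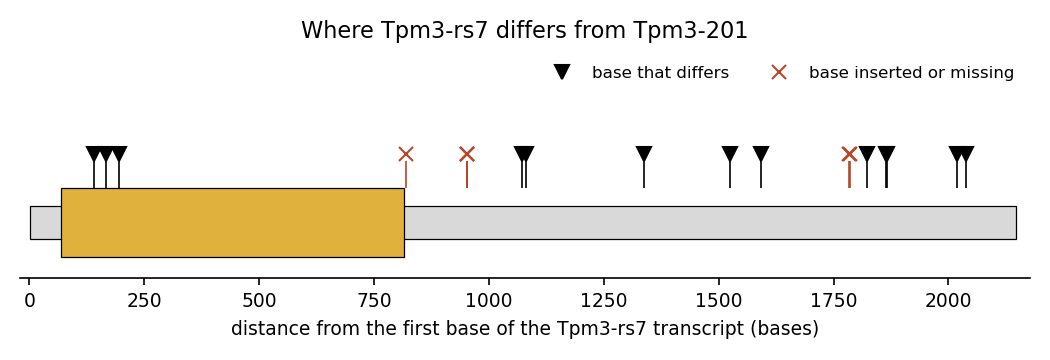
Positions at which the Tpm3-rs7 transcript differs from the short Tpm3 transcript, by distance in bases from the first base of Tpm3-rs7. The bar is the transcript of 2147 bases with its coding part raised, triangles mark base differences and crosses inserted or missing bases. The 3 coding differences lie close together near the start.

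Tpm3, whose short products are the main tropomyosins of many cells outside muscle, was lower in both labelled knockouts. In the controls, replicates 1 and 2, it was counted 21471 and 22515 times, or 1350 and 1516 CPM. In Pd1cKO-Cx3-labelled replicates 2 and 3 it had 5453 and 4992 counts, or 382 and 322 CPM. The groups did not overlap, the mean was 4.07-fold lower, and the log2 fold change (labelled knockout minus control) was -2.03 ± 0.12 (SE).

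Tpm3-rs7 differed in the other direction. It had 645 and 667 counts in the controls, or 40.5 and 44.9 CPM, and 12723 and 14127 counts in the labelled knockouts, or 892 and 912 CPM. The mean was 21.1-fold higher, the groups lay far apart, and the replicates of each group lay close together. The log2 fold change was 4.39 ± 0.12 (SE). Among the 8592 tested genes with a mean of at least 10 CPM, 1 had a larger absolute log2 fold change. Tpm3-rs7 was chosen with its result in this contrast known, so nothing is read from this rank. The 4 log2 fold changes in the authors' deposited tables, each of 1 library against 1 control, ran from 4.31 to 4.49 for Tpm3-rs7 and from -2.23 to -1.82 for Tpm3.

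Counted as 1 gene, the pair differed far less between the groups than either gene. The summed counts were 22116 and 23182 in the controls and 18176 and 19119 in the labelled knockouts. On the CPM scale these were 1390 and 1561 against 1275 and 1235, or 1475 ± 120.5 against 1255 ± 28.45 (SD, n = 2). The groups still did not overlap, with a log2 fold change of -0.24 ± 0.09 (SE). It was -0.15 without Pd1fl/fl replicate 2. The mean of Tpm3 was 1080 CPM lower and that of Tpm3-rs7 859.5 CPM higher, so the rise of the copy equalled 79.6% of the fall of the parent. How reads were divided between the 2 loci was not tested.

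**Figure D2:**
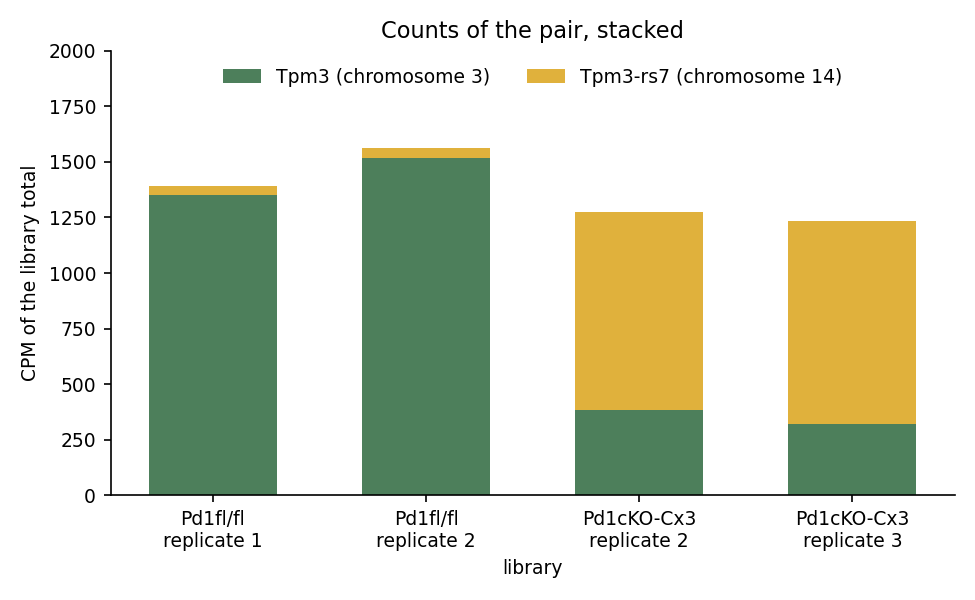
CPM of Tpm3 and Tpm3-rs7 stacked for each of the 4 libraries. The total bar runs from 1235 to 1561 CPM, while the lower segment, Tpm3, falls from 1350 and 1516 to 382 and 322 CPM.

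The division of the pair's counts was almost the same in both controls. Tpm3-rs7 held 2.92% of the summed counts in Pd1fl/fl replicate 1 (exact Clopper-Pearson 95% interval 2.70% to 3.15%) and 2.88% in replicate 2 (2.67% to 3.10%). It held 70.0% (69.3% to 70.7%) and 73.9% (73.3% to 74.5%) in Pd1cKO-Cx3-labelled replicates 2 and 3. These intervals cover counting error only. The 2 controls could not be told apart at this depth, and the intervals of the other 2 libraries did not overlap. The mean share differed by 69.05 percentage points between the groups, and by 67.1 to 71.0 points when any 1 library was left out. Per read of Tpm3 there were 0.030 reads of the copy in both controls and 2.33 and 2.83 in the labelled knockouts.

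Tpm4, which encodes a tropomyosin of nonmuscle cells and platelets, was the most abundant family member outside the pair. It had 1417 and 1460 counts in the controls, or 89.1 and 98.3 CPM, and 1636 and 2709 counts in the labelled knockouts, or 115 and 175 CPM. Both of the latter lay above both controls, but the 2 differed more from each other than the lower of them did from the controls. The log2 fold change was 0.62 ± 0.23 (SE), and 0.29 without Pd1cKO-Cx3-labelled replicate 3. Tpm4 lies on chromosome 8, 72134975 to 72153142.

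Tpm2, the gene of beta-tropomyosin of muscle and fibroblasts (chromosome 4, 43514711 to 43523765), was scarce. It had 82 and 151 counts in the controls and 134 and 220 in the labelled knockouts, or 5.15 and 10.2 against 9.40 and 14.2 CPM. The groups overlapped, and the log2 fold change of 0.62 ± 0.49 (SE) ranged from 0.20 without Pd1fl/fl replicate 1 to 1.19 without Pd1fl/fl replicate 2. It was 0.30 without Pd1cKO-Cx3-labelled replicate 3.

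Tpm1, the gene of alpha-tropomyosin of striated and smooth muscle (chromosome 9, 67022590 to 67049406), had 567 and 322 counts in the controls, or 35.6 and 21.7 CPM. The labelled knockouts fell between them, at 442 and 430 counts, or 31.0 and 27.8 CPM. Its log2 fold change was 0.03 ± 0.31 (SE), and the sign followed the control used. In the authors' deposited tables, each of which sets 1 library against 1 control, it was -0.20 and -0.36 against Pd1fl/fl replicate 1. The authors' deposited tables give 0.52 and 0.36 against replicate 2. These tables share libraries. Without Pd1fl/fl replicate 1 the fitted value was 0.43, without Pd1fl/fl replicate 2 -0.28 and without Pd1cKO-Cx3-labelled replicate 2 -0.05.

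**Figure D3:**
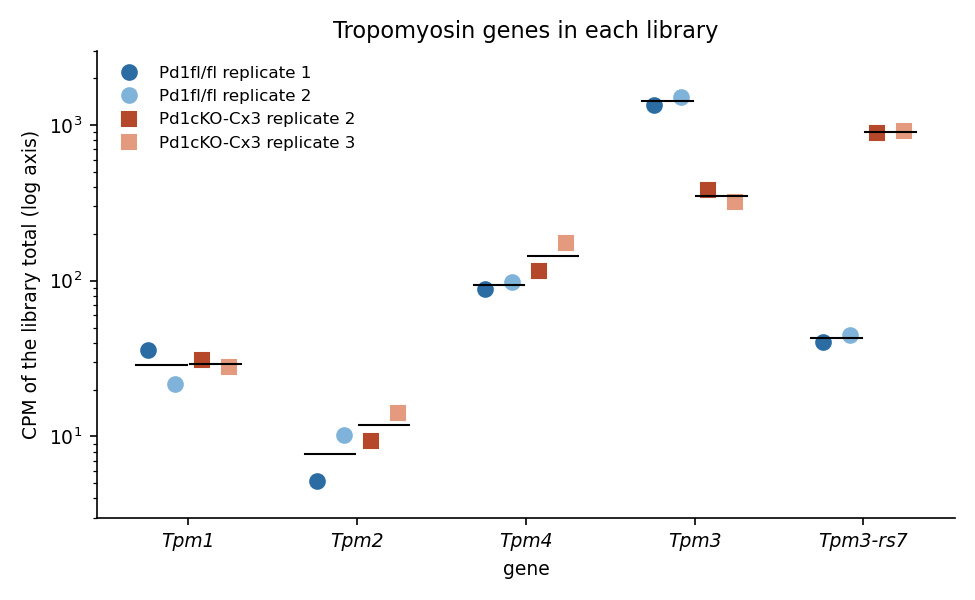
CPM of each tropomyosin gene in the 4 libraries on a log axis, with circles for Pd1fl/fl, squares for the labelled knockouts and a line at each group mean. Tpm3 and Tpm3-rs7 separate in opposite directions, Tpm4 separates narrowly, and Tpm1 and Tpm2 overlap.

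Of the 5 genes, 3 did not overlap between the groups, Tpm3-rs7 and Tpm4 higher and Tpm3 lower in the labelled knockouts. Over the 15097 genes tested, 40.1% did not overlap, 21.3% on the higher side and 18.8% on the lower. The median log2 fold change over those genes was 0.01.

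Levels of different genes can be compared only per length, here as CPM per kilobase of merged exons. In Pd1fl/fl replicates 1 and 2 the order was Tpm3 at 222 and 249, Tpm4 at 40.4 and 44.6, and Tpm3-rs7 at 18.9 and 20.9. Tpm1 at 5.50 and 3.34 and Tpm2 at 1.77 and 3.49 came last and overlapped. In the labelled knockouts the leading place was taken by Tpm3-rs7, at 416 and 425, and Tpm4 at 52.1 and 79.4 overlapped with Tpm3 at 62.9 and 53.0. Tpm2 at 3.23 and 4.88 and Tpm1 at 4.78 and 4.28 again came last and overlapped. Merged exons of Tpm3 include long and intron-retaining isoforms (6.085 kb against 2.147 kb for the copy), which lowers its level on this scale. On the length of its short transcript, 2230 bases, Tpm3 would stand higher, so its overlap with Tpm4 depends on the length chosen. The places of Tpm3 and Tpm3-rs7 also carry the uncertainty from shared windows. The length of the copy is that of GENCODE M21. It exceeds the deposited span, which slightly lowers the level of the copy if counts were made on that span. All 5 genes together stood at 1520 and 1691 CPM in the controls and 1430 and 1451 CPM in the other group, and the pair made up 85.1% to 92.3% of that sum in the 4 libraries.

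Partners of tropomyosin on the actin filament were described from 6 lists holding 68 genes, of which 60 were in the tables and 54 were tested. edgeR's quasi-likelihood test called 6 of all 15097 genes (0.0397%), at a Benjamini-Hochberg adjusted p under 0.05. Of these 3 were higher (0.0199%), Tpm3-rs7 among them, and 3 lower (0.0199%), Tpm3 among them, but the tropomyosins were chosen for it and nothing is read from their 2 calls. The same test called 0 of the 54 partners. Of the 54 tested partners, 10 had an unadjusted p under 0.05 in edgeR. Of all 15097 genes tested 1221 did (8.09%), a smaller share. The lists were chosen with earlier results of these data known, so nothing is read from this difference. DESeq2 called 1 higher and 1 lower, where over all 15584 genes to which it gave an adjusted p it called 1.08% higher and 0.327% lower. The 2 partners were Cald1, which encodes the filament stabiliser caldesmon, and Fscn1, the gene of the bundling protein fascin, both singled out after their values were seen.

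Among the filament caps and stabilisers, 8 of 13 genes were tested, with a median log2 fold change of 0.59, 6 of them above 0. Tmod3, which encodes a tropomodulin that caps the pointed end of tropomyosin-coated filaments, stood at 162 and 192 CPM in the controls and 172 and 191 CPM in the other group, so it overlapped. Tagln2 stood at 18.0 and 26.4 against 34.7 and 47.1 CPM, without overlap, and its log2 fold change was 0.87 ± 0.30 (SE), which missed the threshold (edgeR adjusted p = 0.553). Cnn2, a calponin gene, stood at 11.4 CPM in both controls and at 17.1 and 11.4 CPM in the other 2 libraries. Cald1 had 7 and 5 counts in the controls and 99 and 127 in the labelled knockouts, with an adjusted p of 0.273 in edgeR and 0.0023 in DESeq2.

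Actb, the cytoplasmic beta-actin gene, stood at 3139 and 3004 CPM in the controls and 2840 and 3306 CPM in the labelled knockouts, which overlapped. Actg1, the gamma-actin gene, stood at 139.9 and 138 against 177 and 180.1 CPM without overlap, a log2 fold change of 0.35 ± 0.12 (SE) that did not pass (edgeR adjusted p = 0.548). Acta2, the smooth muscle actin gene, had 54 and 18 counts in the controls and 47 and 259 in the other group, so the difference rested on Pd1cKO-Cx3-labelled replicate 3. Only these 3 of the 6 actin genes were in the tables.

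Of the myosin II genes, 11 of 12 were tested, with a median log2 fold change of -0.03. Myh9, the heavy chain gene of the main nonmuscle myosin II, stood at 221 and 229.6 CPM in the controls and 175 and 182.5 CPM in the labelled knockouts. Its log2 fold change was -0.34 ± 0.12 (SE), which missed the threshold (edgeR adjusted p = 0.542). The light chain genes Myl6 and Myl12b overlapped between the groups, with log2 fold changes of -0.03 ± 0.14 and 0.06 ± 0.15 (SE). Troponins act with tropomyosin in striated muscle. Of the 8 genes, 3 were tested, with a median of -0.56, and Tnni2 stood at 17.3 and 13.3 against 11.9 and 9.04 CPM. Tnni3 had 4.71 and 10.2 against 3.93 and 3.29 CPM, and Tnnt1 0.81 to 1.70 CPM over the 4 libraries.

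Genes of filament branching and severing, processes that compete with tropomyosin for the filament, were all tested, 16 of 16, with a median log2 fold change of 0.07. Cfl1, which encodes the severing protein cofilin, stood at 3437 and 3482 CPM in the controls and 3623 and 4157 CPM in the other group (log2 fold change 0.16 ± 0.08, SE, edgeR adjusted p = 0.692). For the Arp2/3 complex genes highest in mean CPM, the log2 fold change was 0.07 ± 0.09 (SE, Arpc1b) and 0.05 ± 0.11 (SE, Arpc5). Some other genes of the complex, named after their values were seen, differed more and in both directions. Among them were Actr3 at 0.42 ± 0.20 and Arpc5l at -0.39 ± 0.23 (SE), neither past the threshold (edgeR adjusted p = 0.673 and 0.756). The 13 formin and bundling genes had a median of 0.01. Lcp1, the gene of the leukocyte bundling protein plastin, stood at 766 and 846 against 917 and 1079 CPM, and Actn4, an alpha-actinin gene, at 239 and 253 against 286 and 263 CPM. Both lay higher in both labelled knockouts and did not pass (edgeR adjusted p = 0.592 and 0.835). Fscn1 stood at 466.5 and 430.3 against 335 and 281 CPM, with a log2 fold change of -0.55 ± 0.13 (SE), and passed in DESeq2 (adjusted p = 0.0080) but not in edgeR (adjusted p = 0.464).

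**Figure D4:**
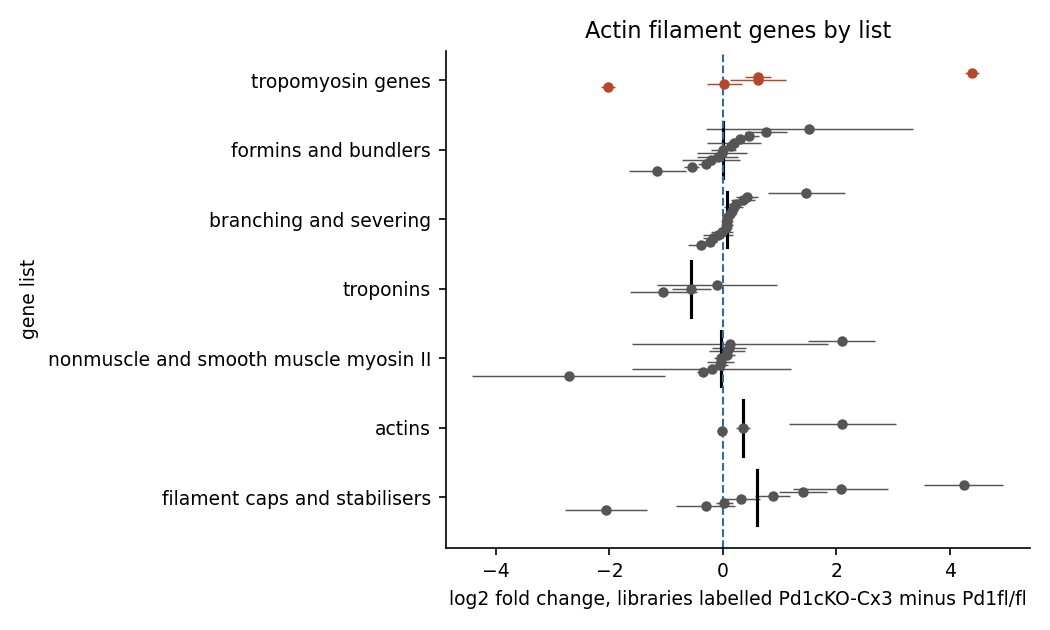
log2 fold changes of the tested genes by list, with bars of 1 SE, a black line at each partner list's median and a dashed line at the median of all genes tested (0.01). Tpm3 at -2.03 and Tpm3-rs7 at 4.39 lie at the ends of the tropomyosin row, and the medians of the partner lists lie between -0.56 and 0.59.

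Vessel wall and connective tissue cells express Tpm1 and Tpm2 strongly, so markers of such cells are given beside Tpm1, Tpm2, Tpm4 and Cald1. In bulk RNA, fewer cells of a type and less RNA per cell cannot be told apart. The 12 mural and smooth muscle markers summed to 98.1 and 40.3 CPM in the controls and 157.5 and 159 CPM in the labelled knockouts. Rgs5 alone made up much of these sums, at 46.2 and 19.7 against 86.0 and 104.6 CPM. Of the 12 markers, 7 were tested, 5 of them above 0, with a median log2 fold change of 1.08 and 0 past edgeR's threshold. Notch3 was at 0 counts in both controls. So were Myh11 and Kcnj8, each of which was also unlisted for 1 of the labelled knockouts (4 counts or fewer, set to 0). Tagln was at 0 in both labelled knockouts. Cspg4 pointed the other way, at 20.9 and 6.60 against 4.91 and 4.26 CPM without overlap (log2 fold change -1.59 ± 0.62, SE, edgeR adjusted p = 0.606). The 6 fibroblast markers summed to 23.1 and 35.3 against 96.7 and 53.0 CPM (median 1.38, 5 of 6 above 0). The 9 endothelial markers summed to 97.7 and 69.3 against 147.6 and 114 CPM (median 0.96, 8 of 9 above 0). The 9 markers of border-associated macrophages summed to 1286 and 1248 against 1553 and 1443 CPM (median 1.30, 9 of 9 above 0). Stab1, at 840 and 703 against 831 and 730 CPM, and Mrc1, at 310 and 429 against 404 and 379 CPM, made up most of these sums. Both overlapped between the groups, with log2 fold changes of 0.01 and 0.07. The other 7 lay higher without overlap, where 21.3% of all genes tested did, and 0 of the 9 passed edgeR's threshold. Neuronal markers stood at 27.3 and 32.9 against 55.6 and 33.4 CPM. Their difference rested on Pd1cKO-Cx3-labelled replicate 2, since replicate 3 barely exceeded Pd1fl/fl replicate 2. Astrocyte markers, at 465.5 and 398 against 514 and 316 CPM, overlapped. So did oligodendrocyte markers, at 695 and 322 against 1123 and 389.7 CPM. Markers of monocytes and neutrophils, at 3.68 to 22.8 CPM, and of red cells and platelets, at 9.62 to 38.9 CPM, overlapped as well. Among microglial markers, Cx3cr1 fell from 11470 and 10260 to 4658 and 4300 CPM (log2 fold change -1.29 ± 0.07, SE, edgeR adjusted p = 0.0251). Whether Cx3 in the group label refers to this gene is not spelled out, and the part of the deletion driver in this fall was not tested. P2ry12, Csf1r and Siglech lay lower without overlap and did not pass (edgeR adjusted p = 0.0959, 0.771 and 0.752), and Tmem119, C1qa, Sall1, Trem2 and Aif1 overlapped. The part of these markers in the tropomyosin values was not tested.

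The genes whose profile over the 4 libraries lay closest to that of Tpm3 were found among 8207 genes with a mean of at least 10 CPM, after the tropomyosins and predicted genes had been left out, by the root mean square distance of centred log2(CPM + 1). The nearest was Fcrl1, an Fc receptor-like gene also on chromosome 3 (87376387 to 87402934), at 32.1 and 30.1 CPM in the controls and 5.75 and 3.23 CPM in the other group (distance 0.33). Ppp1r26, Ston2 and Ppwd1, each below 40 CPM in every library, followed at 0.38 to 0.39. Cx3cr1, the fractalkine receptor gene, was the last of the 5 at 0.39. The nearest to Tpm3-rs7 were Oas2, Ifit1, H2-Q6, Rsad2 and Ifit3, at distances of 0.47 to 0.87. They stood at 0.88 to 17.8 CPM in the controls and at 27.8 to 197 CPM in the labelled knockouts. Ifit1, H2-Q6 and Rsad2 reached the mean of 10 CPM only through the labelled knockouts. Fcrl1, Ppp1r26 and Ppwd1, near Tpm3, reached it only through the controls. With 4 libraries in 2 groups, the genes nearest to Tpm3-rs7 have to be ones that lie far higher in the labelled knockouts. Those nearest to Tpm3 likewise have to lie lower there, so no theme is read from either set.

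Other genes that carry a copy offered a comparison for the way the pair divided its counts. By symbol, 193 copies had their parent in the tables, and 166 of these pairs, several of which share a parent, had at least 100 summed counts in every library. In the other 165 pairs the mean share of the copy differed between the groups by a median of 0.31 percentage points and by 11.1 points at most, and in 161 of them by less than 5 points. The filter was on the sum, so some copies had very few counts, such as Ftl1-ps2 with 0 or 1 in each library. For such copies even a many-fold difference in counts moves the share little, which limits the median as a comparison. Those with the largest differences were Rps12-ps9, Ccnb2-ps and Rps12-ps3, copies of a ribosomal protein gene and a cyclin gene. Rps12-ps9 held 31.0% and 40.2% of its pair's counts in the controls and 33.8% and 15.2% in the labelled knockouts, Ccnb2-ps 30.9% and 24.8% against 25.2% and 14.8%, and Rps12-ps3 2.51% and 19.7% against 3.52% and 4.28%. In all 3 of these the groups overlapped. The share of Tpm3-rs7 did not, and neither did that of 57 of the other 165 copies (34.5%), so the absence of overlap is shared by many pairs. No test was made of the size of the difference.

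**Figure D5:**
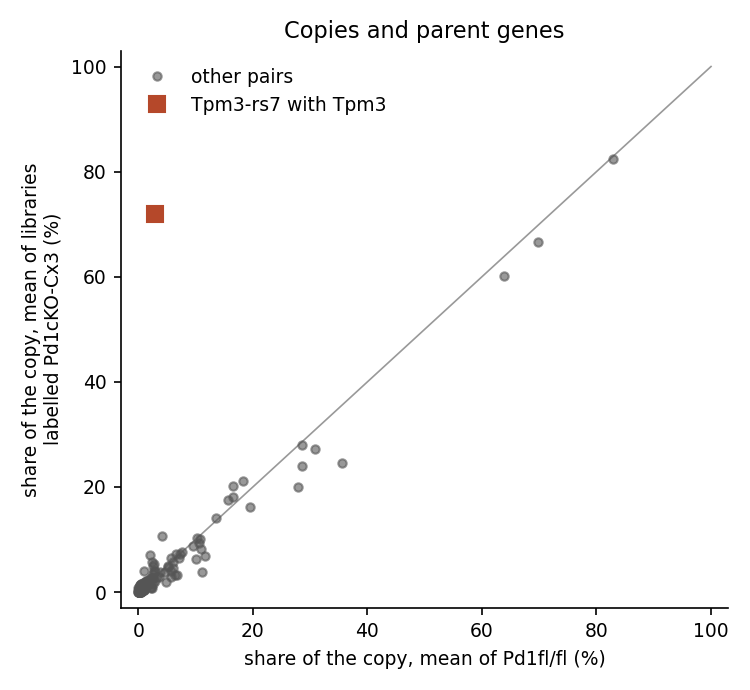
Mean share (%) that a copy held of the summed counts of copy and parent in Pd1fl/fl (horizontal axis) and in the labelled knockouts (vertical axis), for 166 pairs, with a line of equality. The pair of Tpm3-rs7 and Tpm3 stands at 2.90% and 71.9%, and the others lie within 11.1 points of the line.

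The counting of the pair also bears on calls of other genes. With Tpm3 and Tpm3-rs7 entered as 1 gene, edgeR called 0 of 15096 genes, with 1220 at an unadjusted p under 0.05, whereas DESeq2, added once the data had been seen, called 213. The 4 other genes called in the separate count, Cx3cr1, Fcrls, Oas2 and Sp100 (the second and the last named after their values were seen), had edgeR adjusted p from 0.0251 to 0.0466 there and from 0.0574 to 0.0698 with the pair summed. Their fold changes and unadjusted p hardly moved, with 3.80e-06 for Cx3cr1 in both fits, while its rank among all p-values went from 2 to 1 and that of Sp100 from 6 to 4. The Benjamini-Hochberg adjustment divides by that rank, so these 4 calls depended on the 2 tropomyosin rows being counted apart.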

How the data were processed

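There were 4 deposited tables, 1 for every combination of a labelled knockout and a control, so a library was listed in 2 of them and was taken once. Its counts were identical in both, with 0 differences. The deposited values used are raw read counts per Ensembl gene, per the file headers. The deposited log2 fold changes compare the 2 libraries of a table. TopHat2 2.0.12, Bowtie2 2.2.3, HTSeq 0.6.0 and mm9 are named in the submitters' processing notes, but 18668 of 20276 identifiers (92.1%) had exactly their GENCODE M21 position on GRCm38. No source used here says whether strand was used. Genes absent from a library's tables (4 counts or fewer) were set to 0, and no tropomyosin gene was among them.

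CPM are counts per 1000000 counts of the library. Genotypes were fitted with edgeR 4.0.16 in R 4.3.3 (TMM factors, filterByExpr, quasi-likelihood test, Benjamini-Hochberg at 0.05). The SE is the absolute log2 fold change divided by the square root of the F statistic. The alternatives were DESeq2 1.42.0, other normalization factors and filters, leaving out each library, and summing the pair. Transcripts were compared in GENCODE M21.

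The members and lists were chosen with earlier results of these data known. Named were the targeted gene, Xist and Ddx3y, the 3 most abundant partners per list and any called, the 5 nearest profiles to each of the pair, and the 3 copy pairs that differed most. The summed level of the microglial list is not reported here, and its markers are given singly.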

Additional observations from a re-analysis of the deposited data

How the results depend on the processing

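The log2 fold changes of Tpm3 (-2.16 to -1.91) and Tpm3-rs7 (4.32 to 4.47) kept their direction under each alternative run, as did that of the summed pair (-0.33 to -0.15) and the shift in the share of the copy (67.1 to 71.0 points). Leaving out 1 library gave 4.32 to 4.47 for Tpm3-rs7 and -0.33 to -0.15 for the summed pair. Against 3 genes higher and 3 lower over all genes in edgeR, DESeq2 called 169 and 51, edgeR without a filter 22 and 10, and a filter of 5 CPM in 2 libraries 22 and 10. With the pair summed it was 0 and 0 in edgeR and 164 and 49 in DESeq2. Leaving out 1 library gave 1 to 16 higher and 2 to 5 lower. The most calls came without Pd1fl/fl replicate 2 (16 and 5), and 1 was higher without Pd1cKO-Cx3-labelled replicate 3. Of the partner genes DESeq2 called 1 higher and 1 lower, with the pair separate or summed. No paired analysis was possible because the groups share only replicate number 2. Depth limits Tpm2 most, at 82 to 220 counts, and with 2 libraries a group each standard error rests on few degrees of freedom.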
